A study of Homo sapiens with 10 samples.

Results

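The genes described here are 10 that let cells copy or rejoin damaged DNA when accurate repair is not at hand: the ubiquitin ligases RAD18 and HLTF, the translesion polymerases REV1, REV3L, POLH, POLK and POLI, the primase-polymerase PRIMPOL, and the end joining polymerase POLQ with the related helicase HELQ. They were taken by gene name, as a functional group, from the table of 62700 genes, and all 10 were found and passed the filter on low counts, as did 18979 genes in all. The series measured polyadenylated RNA in RPE p53-/- cells, a human line of retinal pigment epithelium that lacks p53, in 5 parental control samples and 5 samples with CCAR1 knocked out as well. Both genotypes therefore lack p53, and both were grown in the same serum-containing medium. CCAR1, known as a regulator of the cell cycle and apoptosis, is presented by the series as acting in splicing, and the comparison asks what its loss changes across the genome. Whether the knockout cells are 1 clone, and whether replicates came from separate cultures, is not in the labels. The spread behind each p-value may therefore be only technical, and the genotypes may also differ in ways unrelated to CCAR1.

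Translesion synthesis lets a replication fork pass a damaged base. RAD18 and HLTF attach ubiquitin to the sliding clamp PCNA, a polymerase with a roomy active site inserts a base opposite the lesion, and polymerase zeta, whose catalytic subunit is REV3L, extends from it. POLQ works on another kind of damage: it anneals short repeats at resected double-strand breaks and fills them in, a backup on which cells without homologous recombination are known to lean.

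Promoter windows of RefSeq (GRCh38.p14, 250 bases before to 50 after each annotated start) were found for all 10 genes, in 12 windows, because HELQ and REV3L have more than one start. They are shown at the matches to 2 of the 3 elements searched, CHR and E2F, which are known from cell cycle promoters, since genes of the cycle are also described further on. The CHR was searched as TTTGAA and TTCGAA, and the E2F element as TTTGGCGC, TTTCCCGC, TTTCGCGC and TTTGCCGC, on both strands. The CHR and E2F matches did not overlap in HLTF, where both were found, and each E2F match read TTTCCCGC. A CHR match lay in windows of 4 genes and an E2F match in windows of 3, against 16.4% and 3.31% of all 35116 windows. The other element searched, CCAAT, lay in windows of 2 genes (HELQ and HLTF), against 34.6% of all windows. These shares count windows and the members are counted as genes, so they are not like for like. HELQ and REV3L were searched in 2 windows each. The stretches of 30 bases are 5′ to 3′ on the gene's strand with the matched letters in capitals, and positions count from the annotated start.
POLQ CHR at -230 (chr3:121546201-121546230, minus strand): atggccttcctaTTCAAAccagaaatggac
POLQ CHR at 4 (chr3:121545968-121545997, minus strand): gggaggtttgagTTTGAAgactggcgggaa
PRIMPOL CHR at -12 (chr4:184649714-184649743, plus strand): ccccgccccggaTTTGAAatctaggtcttc
HLTF CHR at -119 (chr3:149086635-149086664, minus strand): ccccccgccgtcTTTGAAtggcagcggggc
HLTF E2F at -194 (chr3:149086709-149086738, minus strand): ggcctcgtggcTTTCCCGCgcgcccgcctt
POLI E2F at -213 (chr18:54269350-54269379, plus strand): gcctccacccgGCGGGAAAaaactcccgca
REV3L E2F at -88 (chr6:111483288-111483317, minus strand): ctctcgctcctTTTCCCGCcgagccccctc
The match in the REV3L window belongs to its second listed start. HELQ, the fourth gene with a CHR match, held it at -106 and -166 from its starts, and the windows of RAD18, REV1, POLH and POLK held neither CHR nor E2F. PRIMPOL and POLQ, both with a CHR match close to the RefSeq start, had log2 fold changes of 0.48 and -0.44. Any tie between matches and fold changes was not tested. The spans given below for these genes begin upstream of the RefSeq starts, so these matches lie inside the spans. A match is a string of letters and was not tested for binding.

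Levels are estimated counts scaled to CPM, counts for each 1e+06 of a library's scaled total, and every mean ± SD has n = 5. Library totals were 52595504 to 65201972 counts in replicates 1 to 3 and 320578531 to 385449250 counts in replicates 4 and 5 of both genotypes, and the 10 genes had between 345 counts (HELQ) and 31183 counts (HLTF) in a library. All 10 genes were higher in replicates 4 and 5, 1.19 to 1.61-fold in parental and 1.15 to 1.91-fold in knockout cells, so the SDs include this difference. The share of all genes higher in these replicates was not counted, so this cannot be called particular to the 10 genes. Replicates 1 to 3 also held the 20 listed markers of muscle, red cells and liver at a sum of 440.3 to 736 CPM, against 10.5 and 10.7 CPM in parental and 24.98 and 25.1 CPM in knockout replicates 4 and 5. In replicates 4 and 5 most of this sum was the muscle gene TNNT1. It was at 9.44 and 9.49 CPM in parental and 23.2 and 23.1 CPM in knockout cells. The part of these markers' tissues in the members' levels was not tested. Of the pigment epithelium markers MITF (30.9 to 47.1 CPM) and OTX2 (10.1 to 18.3 CPM) were present in each library, while RPE65, TYR and DCT stayed under 0.2 CPM. The targeted gene CCAR1 fell from 148 ± 23.5 CPM to 106 ± 18.5 CPM in the knockout (edgeR adjusted p = 0.0201), and still had 71.4% of its parental RNA. Without parental replicate 5 it did not pass (edgeR adjusted p = 0.0504).

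Of the 10 genes, PRIMPOL rose and POLH fell in knockout cells, and 8 did not pass in edgeR's quasi-likelihood test with genotype as its term and Benjamini-Hochberg adjustment over 18979 genes. Over all genes tested 36.6% passed, 19.7% higher and 16.9% lower, a larger share than 2 of 10. With the replicate number as a block, or with the replicate set (1 to 3 against 4 and 5) as a term, the spread left within groups was smaller and 7 of the 10 passed: PRIMPOL and POLI were higher, and POLH, RAD18, POLQ, REV3L and HLTF lower. That is against 61.2% of all genes with the block (31.1% higher, 30.1% lower) and 64% with the set term (32.7% and 31.3%). REV1, POLK and HELQ passed in none of these fits. The same 7 genes passed in replicates 1 to 3 alone (52.7% of all genes, 26.5% higher and 26.2% lower) and in replicates 4 and 5 alone (57%, 28.9% and 28.1%). With the median of each chromosome also removed beside the set term, 2 were higher and 5 lower (61.8% of all genes, 33.5% and 28.3%). With that median removed from the fit with genotype alone, POLI and PRIMPOL passed, both higher (33.5% of all genes, 20% higher and 13.5% lower). Scaling by library size only (36.2% of all genes, 22.5% and 13.7%) or by DESeq2 size factors (36.9%, 18.4% in each direction) called 1 member in each direction. DESeq2 called 1 member higher and 2 lower (41.3% of all genes, 20.5% and 20.8%). The filter of 1 CPM in 5 libraries gave 2 higher and 1 lower (41.1%, 21.5% and 19.6%), and no low-count filter gave 1 in each direction (13.6% of a longer list of genes, 7.62% and 5.93%). Without parental replicate 5 there were 2 higher and 1 lower (31.8%, 17.4% and 14.4%). The median log2 fold change of the 10 genes was -0.15 with genotype alone and -0.16 with the set term, beside 0.017 and 0.016 over all genes tested. A lower level in bulk RNA cannot tell fewer cells that express a gene from less RNA per cell.

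**Figure D1:**
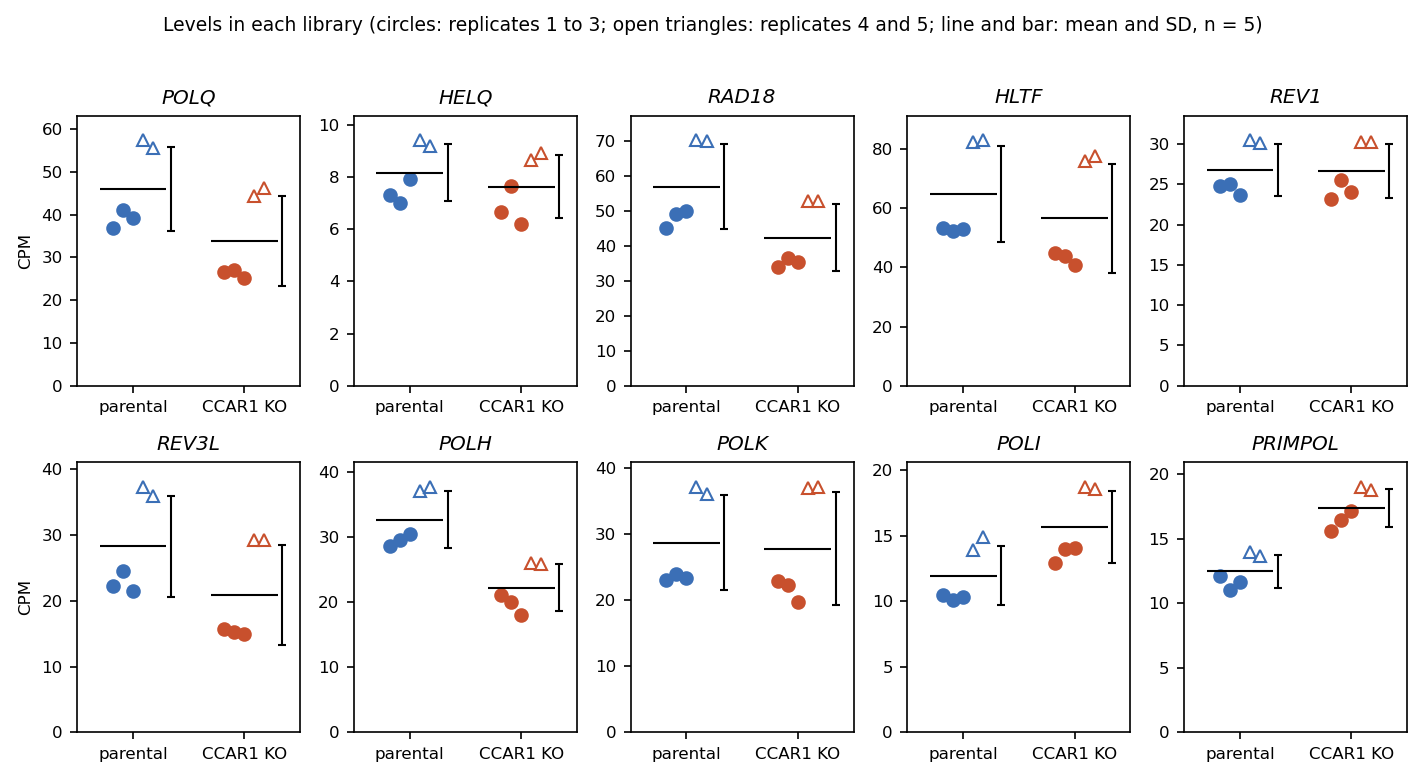
CPM of the 10 genes in each library (y axis, from 0), parental in blue and CCAR1 knockout in orange, circles for replicates 1 to 3 and open triangles for replicates 4 and 5; the line is the mean and the bar the SD of 5. POLH and PRIMPOL are the 2 genes whose knockout and parental libraries do not overlap, and replicates 4 and 5 lie above replicates 1 to 3 of the same genotype in each panel.

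The PCNA ligases come first in the pathway. RAD18 (ENSG00000070950.10, chromosome 3, 8775402 to 8963773 of hg38), the RING ligase that puts the first ubiquitin on PCNA, was at 45.03, 49.1 and 49.97 CPM in replicates 1 to 3 and 70.1 and 69.8 CPM in replicates 4 and 5 of parental cells. In knockout cells RAD18 was at 33.9, 36.6 and 35.4 CPM in replicates 1 to 3 and 52.8 and 52.7 CPM in replicates 4 and 5. Within its own set each RAD18 value of the knockout was under all parental ones, at 73.5% of the parental mean in replicates 1 to 3 and 75.4% in replicates 4 and 5, while the pooled ranges overlapped. The test with genotype alone did not pass (log2 fold change -0.43, 95% interval -0.83 to -0.024, edgeR adjusted p = 0.0938), DESeq2 did (log2 fold change -0.46, adjusted p = 0.0387). With the set term the RAD18 fold change was -0.43 (-0.51 to -0.35, edgeR adjusted p = 1.57e-07), and with the replicate block edgeR adjusted p = 3.76e-06. HLTF (ENSG00000071794.16, chromosome 3, 149030127 to 149086554), a DNA translocase and ligase that extends the ubiquitin chain on PCNA and remodels forks, was at 53.3, 52.4 and 52.8 CPM in replicates 1 to 3 and 82.4 and 82.97 CPM in replicates 4 and 5 of parental cells. Knockout cells held HLTF at 44.8, 43.9 and 40.9 CPM in replicates 1 to 3 and 75.8 and 77.5 CPM in replicates 4 and 5. HLTF was lower within both sets, by less in replicates 4 and 5 (92.7% of parental) than in replicates 1 to 3 (81.8%). Its difference did not pass with genotype alone (log2 fold change -0.19, 95% interval -0.71 to 0.33, edgeR adjusted p = 0.581). It was -0.21 (-0.30 to -0.13, edgeR adjusted p = 3.74e-04) with the set term, and with the replicate block edgeR adjusted p = 0.00249.

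Among the inserter polymerases of the Y family, POLH fell, POLI was higher past the threshold with the replicate set as a term but not with genotype alone, and REV1 and POLK passed in neither fit. POLH (ENSG00000170734.12, chromosome 6, 43576150 to 43615660), polymerase eta, copies past ultraviolet photoproducts and is the gene lost in the variant form of xeroderma pigmentosum. It was at 28.6, 29.6 and 30.5 CPM in replicates 1 to 3 and 37.0 and 37.7 CPM in replicates 4 and 5 of parental cells. The knockout libraries had POLH at 21.1, 20.1 and 18.03 CPM in replicates 1 to 3 and 26.0 and 25.9 CPM in replicates 4 and 5. The lowest parental library, at 28.6 CPM, was above the highest knockout library, at 26.0 CPM. POLH fell from 32.7 ± 4.33 to 22.2 ± 3.58 CPM, which is 67.99% of parental cells (log2 fold change -0.56, 95% interval -0.84 to -0.27, edgeR adjusted p = 0.00598), with an exact two-sided permutation p of 0.00794, the smallest that arrangements of 10 libraries allow. POLH lies on chromosome 6, where the median of protein-coding genes was below 0, and with the chromosome median removed its log2 fold change was -0.23 and no longer passed (edgeR adjusted p = 0.195). With the set term as well as the chromosome median removed it passed (-0.24, edgeR adjusted p = 2.08e-04).

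POLI (ENSG00000101751.11, chromosome 18, 54269404 to 54321266), polymerase iota, a close relative of POLH with very low fidelity opposite template T, was at 10.5, 10.1 and 10.3 CPM in replicates 1 to 3 and 13.9 and 14.9 CPM in replicates 4 and 5 of parental cells. In the knockout POLI was at 12.95, 14.02 and 14.05 CPM in replicates 1 to 3 and 18.7 and 18.6 CPM in replicates 4 and 5. It was higher in each knockout library than in the parental libraries of its set, at 133% of the parental mean in replicates 1 to 3 and 129% in replicates 4 and 5. With genotype alone it did not pass (log2 fold change 0.39, 95% interval 0.048 to 0.73, edgeR adjusted p = 0.0728); without parental replicate 5 it passed (log2 fold change 0.48, edgeR adjusted p = 0.0383). With the set term the POLI fold change was 0.39 (0.30 to 0.48, edgeR adjusted p = 1.27e-06), and with the replicate block edgeR adjusted p = 4.19e-05. REV1 (ENSG00000135945.10, chromosome 2, 99400475 to 99490035), a deoxycytidyl transferase that also docks the other translesion polymerases, was at 24.7, 25.02 and 23.7 CPM in replicates 1 to 3 and 30.5 and 30.1 CPM in replicates 4 and 5 of parental cells. REV1 in knockout cells was at 23.2, 25.6 and 24.1 CPM in replicates 1 to 3 and 30.2 and 30.3 CPM in replicates 4 and 5. These ranges lay on top of each other, with 99.5% of the parental mean, and the 95% interval of the log2 difference ran from -0.25 to 0.23 with genotype alone (edgeR adjusted p = 0.974) and from -0.083 to 0.069 with the set term.

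POLK (ENSG00000122008.16, chromosome 5, 75511756 to 75601144), polymerase kappa, inserts bases opposite bulky adducts of the minor groove and extends mismatched ends. Parental cells had POLK at 23.03, 24.1 and 23.4 CPM in replicates 1 to 3 and 37.2 and 36.1 CPM in replicates 4 and 5. It was at 22.99, 22.3 and 19.8 CPM in replicates 1 to 3 and 36.98 and 37.2 CPM in replicates 4 and 5 of knockout cells. Knockout replicates 4 and 5 matched parental replicates 4 and 5, and knockout replicates 1 to 3 lay at or below the parental ones. The difference did not pass (log2 fold change -0.045, 95% interval -0.55 to 0.46, edgeR adjusted p = 0.913), and its interval with the set term was -0.15 to 0.04 (edgeR adjusted p = 0.295). As a share of the summed CPM per kb of these Y-family genes, POLH held 41.4 to 45.1% in parental and 32.1 to 35.7% in knockout libraries. POLI took 8.11 to 9.05% and 11.95 to 13.8%, and REV1 25.1 to 27.8% and 27.9 to 32.5%. POLK took 20.4 to 24.7% and 21.1 to 27.3%, the one gene of the 4 whose ranges overlapped. Shares add to a whole: the REV1 shares of the genotypes were apart while its level passed in neither fit. The size of each share also depends on the merged exon length used for each gene.

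REV3L (ENSG00000009413.17, chromosome 6, 111299028 to 111483715), the catalytic subunit of the extender polymerase zeta, was at 22.2, 24.5 and 21.5 CPM in replicates 1 to 3 and 37.2 and 35.8 CPM in replicates 4 and 5 of parental cells. REV3L was at 15.7, 15.3 and 14.9 CPM in replicates 1 to 3 and 29.2 and 29.1 CPM in replicates 4 and 5 of knockout cells. Within each set the knockout libraries were below the parental ones, at 67.3% and 79.8% of the parental mean, but the difference between the sets was larger than that between the genotypes. REV3L did not pass with genotype alone (log2 fold change -0.44, 95% interval -1.01 to 0.14, edgeR adjusted p = 0.229) and passed with the set term (-0.46, edgeR adjusted p = 2.66e-06) and the replicate block (edgeR adjusted p = 6.46e-05). It also lies on chromosome 6, and with the set term its log2 fold change went to -0.14 (-0.25 to -0.025, edgeR adjusted p = 0.0338) with the chromosome median removed. Its partner subunit MAD2L2, the gene of REV7, was at 66.6 ± 11.2 and 64.96 ± 16.6 CPM (edgeR adjusted p = 0.912, and 0.421 with the replicate block).

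PRIMPOL (ENSG00000164306.11, chromosome 4, 184649613 to 184694963), which restarts stalled synthesis by laying a new primer beyond the lesion, was the member with the smallest p with genotype alone (POLH had it with the set term and RAD18 with the replicate block). Parental libraries held PRIMPOL at 12.1, 11.1 and 11.7 CPM in replicates 1 to 3 and 13.9 and 13.7 CPM in replicates 4 and 5. Knockout libraries held it at 15.6, 16.5 and 17.2 CPM in replicates 1 to 3 and 19.03 and 18.8 CPM in replicates 4 and 5. The lowest knockout library, at 15.6 CPM, was above the highest parental one, at 13.9 CPM, in spite of the difference between the sets. PRIMPOL rose from 12.5 ± 1.27 to 17.4 ± 1.47 CPM, which is 139% of parental cells (log2 fold change 0.48, 95% interval 0.28 to 0.68, edgeR adjusted p = 0.00183). Its exact two-sided permutation p of 0.00794, the smallest possible, is fixed by the ranges lying apart and adds nothing to them. PRIMPOL passed in each of the 24 alternative settings, at log2 fold changes of 0.43 to 0.54. Ranges apart in this direction were found for 16% of all genes tested, and ranges apart with the knockout lower, as for POLH, for 14.6%.

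POLQ (ENSG00000051341.15, chromosome 3, 121431427 to 121546641), polymerase theta, was at 36.8, 40.99 and 39.2 CPM in replicates 1 to 3 and 57.4 and 55.7 CPM in replicates 4 and 5 of parental cells. Knockout cells had POLQ at 26.5, 27.1 and 25.2 CPM in replicates 1 to 3 and 44.4 and 46.3 CPM in replicates 4 and 5. Knockout replicates 4 and 5 were thus above parental replicates 1 to 3, though each knockout library was below the parental libraries of its set, at 67.4% of their mean in replicates 1 to 3 and 80.2% in replicates 4 and 5. POLQ did not pass with genotype alone (log2 fold change -0.44, 95% interval -0.92 to 0.038, edgeR adjusted p = 0.143). With the set term its log2 fold change was -0.46 (-0.57 to -0.35, edgeR adjusted p = 1.98e-06), and with the replicate block edgeR adjusted p = 6.21e-05. HELQ (ENSG00000163312.11, chromosome 4, 83407343 to 83455856), a helicase related to the helicase domain of POLQ that unwinds and anneals DNA at stalled forks, was at 7.30, 7.01 and 7.92 CPM in replicates 1 to 3 and 9.42 and 9.18 CPM in replicates 4 and 5 of parental cells. HELQ in the knockout was at 6.68, 7.68 and 6.20 CPM in replicates 1 to 3 and 8.67 and 8.94 CPM in replicates 4 and 5. Knockout replicate 2 lay among the parental libraries, and the ranges overlapped in replicates 1 to 3. HELQ did not pass with genotype alone (log2 fold change -0.10, 95% interval -0.39 to 0.19, edgeR adjusted p = 0.622), nor with the set term, where the interval was -0.23 to 0.031 (edgeR adjusted p = 0.172). Knockout and parental ranges were apart within both sets for the 7 genes that passed with the set term, in the direction of their fold change, as for 26.9% of all genes with the knockout lower and 27.1% with it higher. Such ranges fix the exact two-sided permutation p within sets at 0.0167, the smallest that 120 arrangements allow, so it adds nothing for these 7. That p was 0.133 for HELQ, 0.267 for POLK and 0.817 for REV1.

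**Figure D2:**
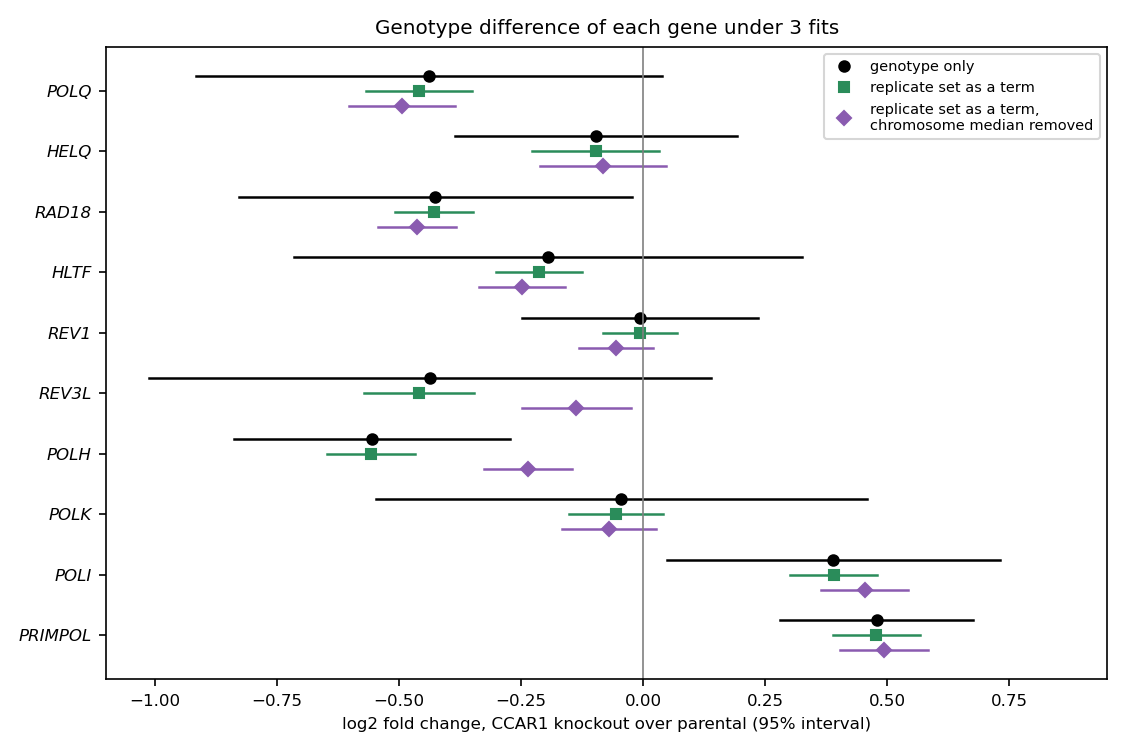
Log2 fold change of knockout over parental (x axis) with its 95% interval for each gene, fitted with genotype alone (black circles), with the replicate set as a term (green squares) and with the chromosome median also removed (purple diamonds). The set term narrows each interval while the points stay close, and removing the chromosome median moves REV3L and POLH, both on chromosome 6, toward 0.

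Whether the genotype difference itself differed between the sets of replicates was tested with an interaction term. No member passed in edgeR (0 of 10 at an adjusted p under 0.05, against 0.601% of all genes, 0.316% with a positive and 0.285% with a negative term). With limma-voom 0 passed, and with DESeq2 1. At an unadjusted p under 0.05 there were 3 members in edgeR. The share of all genes at that threshold was not counted, so these 3 cannot be called a trait of the members. The 3 were POLQ, REV3L and HLTF, whose log2 fold changes in replicates 1 to 3 were -0.58, -0.58 and -0.30 and in replicates 4 and 5 -0.34, -0.34 and -0.13. For POLQ, the gene that passed in DESeq2 (adjusted p = 0.0356), the difference between the sets was 0.25 ± 0.074 (SE; edgeR adjusted p = 0.119). Without knockout replicate 1 these 3 genes passed in edgeR (adjusted p = 0.0336, 0.0382 and 0.0272), where 12.5% of all genes passed, 4.05% with a positive and 8.48% with a negative term. In DESeq2 the interaction passed for 7.15% of the 13826 genes that it gave an adjusted p, 1.9% with a positive and 5.24% with a negative term. The log2 fold changes of the 2 sets were closer for RAD18 (-0.45 and -0.43), POLH (-0.59 and -0.54), POLI (0.40 and 0.35) and PRIMPOL (0.49 and 0.43).

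**Figure D3:**
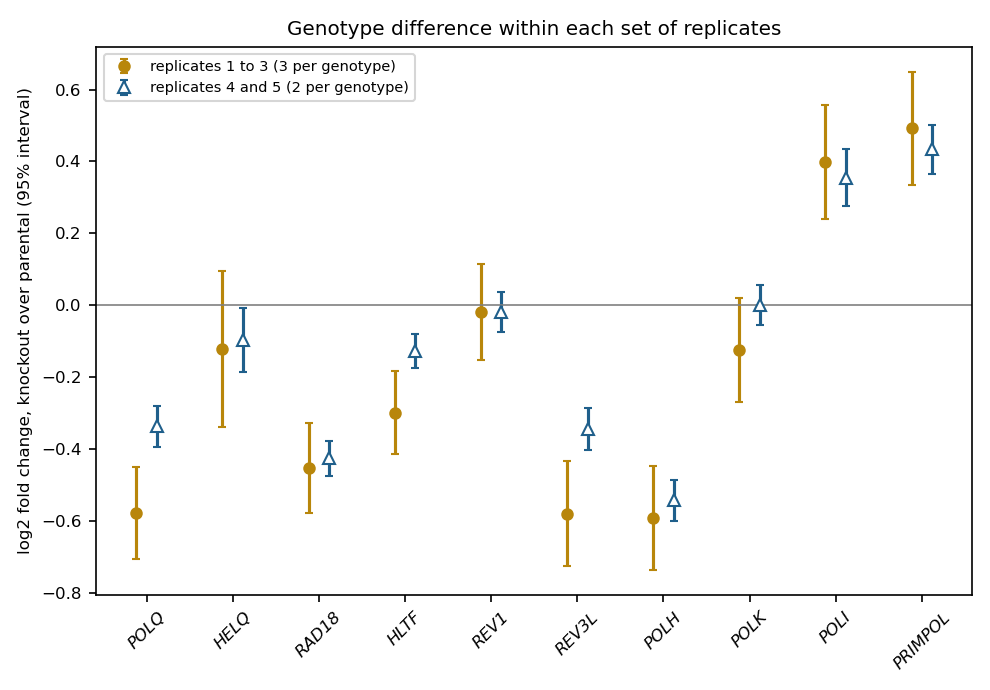
Log2 fold change of knockout over parental (y axis, 95% interval) in replicates 1 to 3 (filled circles, 3 libraries per genotype) and in replicates 4 and 5 (open triangles, 2 per genotype), fitted separately. POLQ, REV3L and HLTF are nearer 0 in replicates 4 and 5, while RAD18, POLH, POLI and PRIMPOL lie at close values in both.

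The genes lie on 6 chromosomes, and the median of chromosome 6 was the furthest below 0 of these. On chromosome 6, which carries REV3L and POLH, the median log2 fold change of 730 protein-coding genes was -0.32, while the medians of chromosomes 2, 3, 4, 5 and 18 were between -0.064 and 0.049. The protein-coding neighbours within 5 Mb of POLH had a median of -0.31, with 33 of 79 lower and 8 higher past the threshold, and 24 of the 79 had a more negative fold change than POLH itself. Those of REV3L had a median of -0.26, with 20 of 45 lower and 8 higher, and 12 of 45 were more negative than REV3L. POLQ and RAD18, both on chromosome 3, differed from most of their surroundings. Their neighbours' medians were 0.02 and 0.12, and 2 of 52 and 5 of 54 were more negative. Around POLI and PRIMPOL the medians were -0.085 and -0.061, with 5 of 31 and 6 of 25 neighbours more positive. REV1, with a log2 fold change near 0, sat below most of its neighbours, whose median was 0.27.

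**Figure D4:**
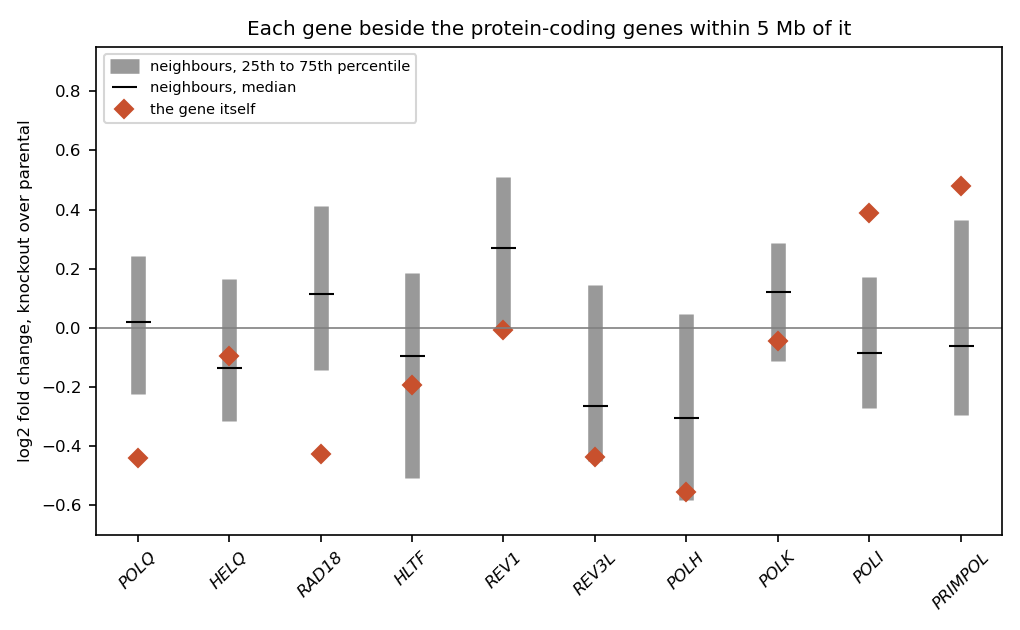
Log2 fold change of each gene (orange diamond) beside the protein-coding genes tested within 5 Mb of it (grey bar, 25th to 75th percentile; black line, median). The grey bars of REV3L and POLH lie mostly below 0 and reach down to the genes themselves, while POLQ and RAD18 lie below and POLI and PRIMPOL above the bars of their neighbours.

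Divided by the merged exon length of each gene, levels can be compared between genes only roughly. The lengths come from earlier versions of these gene entries than the counts. Which transcripts the cells expressed was not examined. In parental cells HLTF was highest, at 12.1 ± 3.06 CPM per kb, followed by RAD18 at 9.65 ± 2.06 and POLH at 9.23 ± 1.22, which could not be ordered, since RAD18 was above POLH in 2 of 5 libraries. REV1 (5.64 ± 0.680), PRIMPOL (5.43 ± 0.552) and POLQ (5.07 ± 1.07 CPM per kb) also overlapped, with each above the next in 3 of 5 libraries. POLK came next at 4.81 ± 1.21 CPM per kb, below POLQ in each of the 5 libraries, and REV3L (2.51 ± 0.682), HELQ (2.28 ± 0.304) and POLI (1.84 ± 0.350 CPM per kb) were lowest, with REV3L above HELQ in 3 of 5 libraries. In knockout cells PRIMPOL, at 7.57 ± 0.641 CPM per kb, and RAD18, at 7.18 ± 1.63, could not be ordered, since PRIMPOL was above RAD18 in replicates 1 to 3 and below it in replicates 4 and 5. REV3L had the lowest mean, 1.85 ± 0.677 CPM per kb, though HELQ was above it in only 3 of 5 libraries, and POLI, at 2.41 ± 0.424, was above HELQ and below POLQ in each of the 5 libraries.

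**Figure D5:**
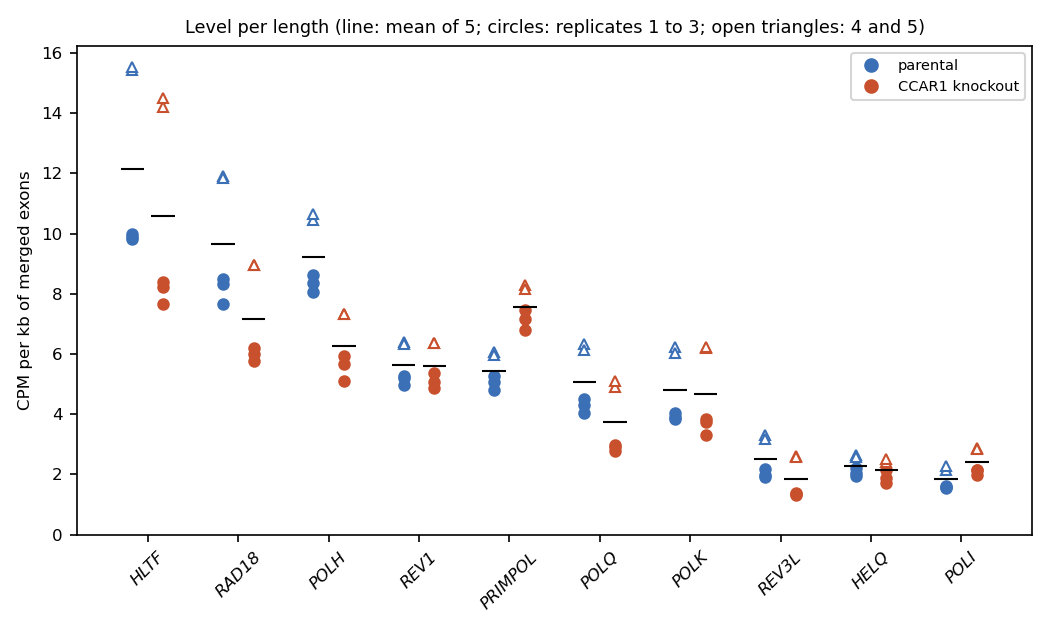
CPM per kb of merged exons (y axis, from 0) of the 10 genes in each library, ordered by the parental mean; blue is parental, orange CCAR1 knockout, circles are replicates 1 to 3, open triangles replicates 4 and 5, and lines are means of 5. HLTF is highest in both genotypes, and PRIMPOL lies among REV1 and POLQ in parental cells and near RAD18 in knockout cells, above it in replicates 1 to 3 and below it in replicates 4 and 5.

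The partners of the translesion polymerases at PCNA were listed as 27 genes of ubiquitin enzymes, clamp loader, polymerase delta and the single-strand binding protein RPA. Of these 2 rose and 7 fell, leaving 18 past no threshold. With the replicate block 4 rose and 14 fell. With library size only 3 fell and with no low-count filter 4 fell. These counts stand against the shares over all genes given above. The median log2 fold change of the list was -0.13, beside 0.017 over all genes. RPA1, the large RPA subunit, fell from 194 ± 7.14 to 139 ± 1.83 CPM (edgeR adjusted p = 2.53e-05), and the clamp PCNA itself fell from 329 ± 19.5 to 246 ± 10.7 CPM (edgeR adjusted p = 2.66e-04). POLD4, the small subunit of polymerase delta, rose from 15.6 ± 2.71 to 28.1 ± 6.61 CPM (edgeR adjusted p = 0.00341), and the fork remodeller SMARCAL1 rose from 22.7 ± 1.36 to 28.6 ± 2.26 CPM (edgeR adjusted p = 0.00448). Of the E2 enzymes that work with RAD18, UBE2B fell (log2 fold change -0.32, edgeR adjusted p = 0.0186) and UBE2A did not pass (-0.21, edgeR adjusted p = 0.134). USP1, which removes ubiquitin from PCNA, was at 150.5 ± 25.7 and 114 ± 20.9 CPM (edgeR adjusted p = 0.0574, and 4.88e-06 with the replicate block). UBE2A, UBE2B, USP1 and MAD2L2 are named for their direct tie to members, chosen after their values were seen.

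Among 14 genes of microhomology end joining and end resection that act around POLQ, 1 rose and 5 fell, with 8 past no threshold. Over all genes tested 19.7% were higher and 16.9% lower. With the replicate block 1 rose and 8 fell, against 31.1% and 30.1% of all genes. With library size only or no low-count filter 3 fell, against 13.7% and 5.93% of all genes. The median log2 fold change of the list was -0.15. The DNA ligase LIG3, which seals the ends that POLQ fills, fell from 41.6 ± 2.95 to 27.8 ± 1.98 CPM (edgeR adjusted p = 1.34e-04), and its scaffold XRCC1 rose from 60.04 ± 5.28 to 77.1 ± 11.3 CPM (edgeR adjusted p = 0.0248). XRCC1 did not pass without parental replicate 2, 4 or 5, or without knockout replicate 1, 2 or 3, each left out alone (log2 fold changes 0.31 to 0.36, edgeR adjusted p = 0.0524 to 0.0731). LIG3 and RPA1, which also counts in this list, lie on chromosome 17, whose median was -0.28, and both passed with it removed (edgeR adjusted p = 0.00921 and 0.00802). XRCC1 lies on chromosome 19 and did not pass with that median of 0.17 removed (edgeR adjusted p = 0.229). Of 14 measured DNA polymerase genes of other kinds, 0 rose and 5 fell in edgeR (0 rose at an unadjusted p under 0.05, and 0 with DESeq2 or limma-voom), and 1 rose and 9 fell with the block. With no low-count filter 3 fell, and with the chromosome median removed 2 rose and 3 fell (20% and 13.5% of all genes). The other counts stand against the shares over all genes given above. Those shares were not counted at the unadjusted threshold or with limma-voom. POLE, the leading-strand polymerase, fell from 105 ± 6.19 to 76.8 ± 5.04 CPM (edgeR adjusted p = 3.84e-04), and POLG2, an accessory subunit in mitochondria, from 14.8 ± 0.407 to 12.6 ± 0.416 CPM (edgeR adjusted p = 0.00697). POLG2 also lies on chromosome 17 and with its median removed had a log2 fold change of 0.049, of the other sign (edgeR adjusted p = 0.569).

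Of 24 genes of S phase, G2 and mitosis, 11 fell and 0 rose in edgeR, against 16.9% lower and 19.7% higher over all genes. In edgeR 0 rose at an unadjusted p under 0.05, and 0 rose with DESeq2 (20.5% of all genes) or limma-voom. The share of all genes was not counted at the unadjusted threshold or with limma-voom. With the replicate block 19 fell, against 30.1% of all genes. The median log2 fold change of the list was -0.34. MCM3, a subunit of the replicative helicase, and FOXM1, a transcription factor of mitotic genes, had the smallest p, at log2 fold changes of -0.72 and -0.54 (edgeR adjusted p = 1.35e-06 and 8.39e-06). MCM3 lies on chromosome 6 and passed with that chromosome's median removed (edgeR adjusted p = 9.46e-05). The part of the cycle in the levels of POLQ, RAD18 or other members was not tested.

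Across the 10 libraries, with log2 CPM centred within each replicate set, the genes most like POLQ among 9385 genes of at least 10 CPM were MORC3 (r = 0.996), GEN1 (r = 0.995), ZC3H12C (r = 0.994). Most like PRIMPOL were GFUS (r = 0.997), CPNE7 (r = 0.997), PDLIM7 (r = 0.997), and most like POLH were LBR (r = 0.999), KLHL4 (r = 0.998), ZBTB2 (r = 0.998). These values describe 10 libraries of 2 genotypes, so a gene with a steady genotype difference of the same sign scores high, whatever its size. The log2 fold changes of MORC3, GEN1 and ZC3H12C were -0.16, -0.41 and -0.84, beside -0.44 for POLQ. Centred within genotype and set, where only the spread between replicates is left, POLH and POLK had r = 0.875 and POLK and PRIMPOL r = -0.789, the highest and lowest of the 45 pairs of members.

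The spans of some members, introns included, overlap genes on the opposite strand. Whether their exons overlap was not examined, and no source used here says whether counting took account of strand. Whether any reads are shared was not tested. POLH overlaps GTPBP2, which had a log2 fold change of -0.39 (edgeR adjusted p = 0.0185) at 69.7 and 53.2 CPM. REV3L overlaps TRAF3IP2-AS1, at 4.35 and 3.10 CPM (log2 fold change -0.49, edgeR adjusted p = 0.00364). PRIMPOL overlaps CENPU, a gene of a centromere protein, whose log2 fold change was -0.23, of the sign opposite to that of PRIMPOL (edgeR adjusted p = 0.233). The overlaps of REV1 with EIF5B and of POLK with CERT1 involved genes at log2 fold changes of -0.024 and 0.26. For POLQ and RAD18, the overlapping genes held at most 143 counts over all 10 libraries.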

How the data were processed

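Polyadenylated RNA of 10 samples was sequenced. The authors deposited an unnormalized estimated count (expected count) for each gene, made with kallisto 0.48.0 on hg38 per the submitters' processing notes. No source used here gives the annotation release, the step from transcripts to genes or the use of strand. Genotype and replicate number were read from the titles. Counts were rounded, kept by filterByExpr, scaled by TMM and fitted over all genes in edgeR 4.0.16 (R 4.3.3, quasi-likelihood, robust), p-values being Benjamini-Hochberg adjusted and called under 0.05. DESeq2 1.42.0 and limma 3.58.1 were alternatives. Standard errors came from the coefficient and its F statistic, permutations and correlations from log2 CPM (prior count 3), positions and exon lengths from GENCODE (GRCh38), and promoters from RefSeq. The gene identifiers printed are those of the deposited counts. The GENCODE release used held earlier versions of the members' identifiers, and genes were matched without the version. The fits were tested on simulated counts.

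The members, lists, replicate sets and most alternatives were chosen with earlier results of these data known. Genes of the lists were named by rule, up to 2 in each direction with the smallest adjusted p per list. UBE2A, UBE2B, USP1 and MAD2L2 were exceptions, chosen after their values were seen. Another rule named the 3 genes most alike for POLQ and for the 2 members with the smallest p. Genes that overlap members were named outside these rules. One alternative, the set term with chromosome medians removed, was added after the data were seen. No pair of libraries of a genotype and set was alike enough to be 1 library (mean chi-square of 6.95 to 26.5 a gene). Same-numbered samples deviated together (correlations 0.64, 0.584, 0.606, 0.899 and 0.894), which pairs them by the rule used; within sets the correlations were -0.06 to -0.00521, so the pairing follows the sets.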

Additional observations from a re-analysis of the deposited data

How the results depend on the processing

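Counts are given as higher and lower in knockout. They stand against the shares over all genes given for the same settings with the members. Those shares were not counted for limma-voom, no robust step or the thinned libraries. With genotype alone they were 1 and 1 members, 2 and 7 translesion partners, 1 and 5 end joining partners, 0 and 5 other polymerases, 0 and 11 cell cycle genes. With the replicate block they were 2 and 5 members, 4 and 14 translesion partners, 1 and 8 end joining partners, 1 and 9 other polymerases, 0 and 19 cell cycle genes. With the replicate set as a term there were 2 and 5 members, 4 and 15 translesion partners, 1 and 8 end joining partners, 2 and 9 other polymerases, 1 and 19 cell cycle genes. With replicate set as a term, chromosome median removed, the counts were 2 and 5 members, 5 and 11 translesion partners, 2 and 7 end joining partners, 3 and 7 other polymerases, 0 and 20 cell cycle genes. Replicates 1 to 3 alone gave 2 and 5 members, 3 and 11 translesion partners, 1 and 8 end joining partners, 1 and 7 other polymerases, 1 and 17 cell cycle genes. Replicates 4 and 5 alone gave 2 and 5 members, 4 and 21 translesion partners, 2 and 10 end joining partners, 1 and 9 other polymerases, 0 and 21 cell cycle genes. With the chromosome median removed there were 2 and 0 members, 3 and 5 translesion partners, 1 and 4 end joining partners, 2 and 3 other polymerases, 0 and 9 cell cycle genes. With library size only the counts came to 1 and 1 members, 2 and 3 translesion partners, 1 and 3 end joining partners, 0 and 4 other polymerases, 1 and 10 cell cycle genes. With no low-count filter they came to 1 and 1 members, 2 and 4 translesion partners, 1 and 3 end joining partners, 0 and 3 other polymerases, 0 and 10 cell cycle genes. The filter of 1 CPM in 5 libraries left 2 and 1 members, 2 and 5 translesion partners, 1 and 4 end joining partners, 0 and 5 other polymerases, 1 and 10 cell cycle genes. DESeq2 called 1 and 2 members, 2 and 11 translesion partners, 1 and 5 end joining partners, 0 and 7 other polymerases, 0 and 12 cell cycle genes. Leaving out 1 library gave 1 to 2 members higher, 0 to 3 members with a genotype difference that depended on the set (3 without knockout replicate 1, and 1 with DESeq2), 0 to 1 end joining partners higher and 5 to 8 translesion partners lower. Over all genes tested 31.8 to 36.3% passed when 1 library was left out, and 0.0526 to 12.5% for the interaction. DESeq2 size factors, limma-voom, no robust step and replicates 4 and 5 thinned to the smallest total kept these counts within 1.5-fold. Of 240 member fold changes under alternatives, 197 stayed on their side of the threshold with the same sign, 29 came to pass, 1 (POLH with the chromosome median removed, -0.23) ceased to pass, and 13 changed sign, all of REV1 or POLK, which passed nowhere. REV1 was 0.054 with library size only, 0.026 with 1 CPM in 5 libraries and -0.061 to 0.041 without 1 library. POLK was 0.023 with library size only, 0.00034 in replicates 4 and 5 alone and -0.17 to 0.063 without 1 library. POLG2, which fell with genotype alone, was 0.049 with the chromosome median removed and 0.051 with the replicate set as a term and chromosome median removed. The cause of these shifts was not tested. The replicate block and the set term called the same members, and CCAR1 lost its call with library size only (-0.42), the chromosome median removed (-0.31) or without parental replicate 5 (-0.42). Members had at least 345 counts per library, and their standard errors were larger in replicates 1 to 3 than in the deeper replicates 4 and 5 (for HELQ 0.102 and 0.041).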
